A study of Homo sapiens with 4 samples.

Results

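The genes described here are 7 metallothioneins (MT1E, MT1F, MT1G, MT1H, MT1M, MT1X and MT2A), the metal-responsive transcription factor MTF1, the zinc exporter SLC30A1 and the zinc importer SLC39A10. They were read through every array probe set whose platform annotation lists one of these 10 symbols, which gave 18 of the 54675 probe sets on the array, each listed with a single symbol (10 of the 21357 symbols in that annotation). Of these, 9 have an identifier ending in _x_at, the manufacturer's mark for probe sets whose probes also match other transcripts, and they are kept apart from the other 9 throughout.

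Metallothioneins are small, cysteine-rich proteins that bind zinc and copper and also trap cadmium and mercury. When free zinc rises in the cell, MTF1 moves to the nucleus and binds short DNA elements called metal response elements (MREs) in the promoters of metallothionein genes and of SLC30A1, so that zinc is both bound and pumped out. SLC39A10 works in the other direction and brings zinc into the cytosol. Metallothionein genes are also known to respond to oxidants, to electrophiles and to glucocorticoids.

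The cells were U937, an established human lymphoma line of immature monocytic character. The treated cells had received shikonin, a plant naphthoquinone, at 100 nM for 3 h (2 samples), and the control cells the solvent dimethyl sulfoxide (DMSO; 2 samples, with no time stated). The labels name no genetic change in either group, and each of the 4 samples was hybridized to its own Affymetrix human U133 Plus 2.0 array. No label says whether the samples of a group were separate cultures. A p-value here reflects only how far these particular samples spread, on that probe set and, through the model, on other probe sets. That spread may be technical.

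Median signals were 61.0 to 63.7 on the shikonin arrays and 60.5 to 62.2 on the DMSO arrays, and the log2 values of arrays of 1 group correlated at 0.979 over the probe sets tested. Of 10 myelomonocytic marker genes listed, 9 were read by 15 probe sets, whose mean signals ranged from 1.73 to 20023 with a median of 1454 after shikonin and from 1.98 to 20511 with a median of 1488 in DMSO. The neutrophil elastase gene ELANE and the lysozyme gene LYZ were among the bright ones, while MPO was dim (43.9 and 60.7 after shikonin, 33.1 and 77.9 in DMSO on its 2 probe sets). CD68 was dim as well (98.4 after shikonin and 93.2 in DMSO on 203507_at). T cell markers did not exceed a mean of 47.2 after shikonin and 56.7 in DMSO, erythroid markers 106.0 and 109.3, and B cell markers reached 357.7 and 307.2 on a PAX5 probe set. Of the 23 marker probe sets tested, limma called 0, with 0 higher and 2 lower at an unadjusted p under 0.05 (11.7% and 12.8% of all).

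Of the 16 member probe sets bright enough to be tested, 9 rose after shikonin, 1 fell and 6 did not pass. The 9 that rose were all of the metallothionein probe sets ending in _x_at. Among the 7 other tested probe sets, 0 rose and 1 fell, a probe set of SLC30A1 (0 higher and 3 lower at an unadjusted p under 0.05, against 11.7% and 12.8% of all tested probe sets). Of those 3, MT1G 210472_at passed the filter on low signal only through its DMSO arrays, so it is no support for a direction. Over all 32768 probe sets tested, 3.92% were called higher and 5.27% lower at a Benjamini-Hochberg adjusted p under 0.05 in limma, a linear model that shares its variance estimate between probe sets. The median log2 change was 0.26 over the 16 member probe sets, 0.60 over the 9 metallothionein _x_at probe sets, -0.20 over the other 7 and 0.008 over all probe sets tested. MT1G 210472_at is counted among the 16 and among the 7. RNA was taken from whole cultures, so more RNA per cell and more cells that express a gene cannot be told apart.

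**Figure D1:**
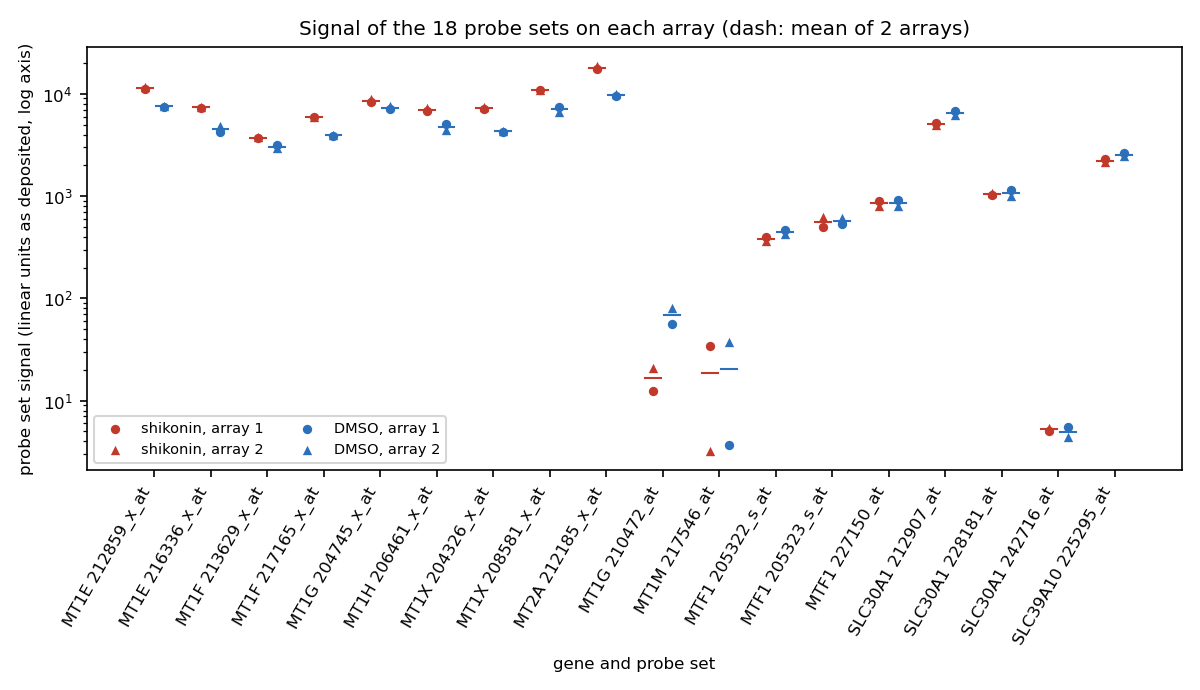
Signal of each of the 18 probe sets (x axis) on each array, in the deposited linear units on a log axis, with the shikonin arrays (red) left of the DMSO arrays (blue), circles and triangles for arrays 1 and 2, and a dash at the mean of each pair. The 9 metallothionein _x_at probe sets on the left have both shikonin arrays above both DMSO arrays, and MT1M 217546_at has widely spread arrays in both groups.

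The promoters of 3 metallothioneins and of SLC30A1 are shown because they differ in how often they hold the core of the MRE, the element through which MTF1 acts. The sequences are the 250 bases before the RefSeq transcription start in GRCh38.p14, written 5′ to 3′ on the strand of the gene. Capitals mark each match to the core, searched as TGCACNC or TGCGCNC on both strands, so that a match on the opposite strand appears as its reverse complement.
MT2A, chr16:56608334-56608583, plus strand: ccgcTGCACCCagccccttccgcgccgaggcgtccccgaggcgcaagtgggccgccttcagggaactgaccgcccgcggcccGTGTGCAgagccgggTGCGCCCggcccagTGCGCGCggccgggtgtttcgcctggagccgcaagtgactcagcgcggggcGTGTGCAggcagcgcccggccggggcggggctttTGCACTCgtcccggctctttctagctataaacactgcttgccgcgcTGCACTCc
MT1H, chr16:56669564-56669813, plus strand: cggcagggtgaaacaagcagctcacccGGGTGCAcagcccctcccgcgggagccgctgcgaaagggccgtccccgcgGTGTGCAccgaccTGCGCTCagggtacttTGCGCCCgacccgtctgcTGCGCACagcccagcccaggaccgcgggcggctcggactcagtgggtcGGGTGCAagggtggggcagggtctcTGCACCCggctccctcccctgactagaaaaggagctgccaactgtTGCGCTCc
MT1X, chr16:56682220-56682469, plus strand: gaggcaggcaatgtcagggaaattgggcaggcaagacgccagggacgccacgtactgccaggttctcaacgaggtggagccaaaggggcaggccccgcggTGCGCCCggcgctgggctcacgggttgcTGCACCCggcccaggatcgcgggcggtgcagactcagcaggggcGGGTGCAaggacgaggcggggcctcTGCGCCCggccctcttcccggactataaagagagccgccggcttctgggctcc
SLC30A1, chr1:211579162-211579411, minus strand: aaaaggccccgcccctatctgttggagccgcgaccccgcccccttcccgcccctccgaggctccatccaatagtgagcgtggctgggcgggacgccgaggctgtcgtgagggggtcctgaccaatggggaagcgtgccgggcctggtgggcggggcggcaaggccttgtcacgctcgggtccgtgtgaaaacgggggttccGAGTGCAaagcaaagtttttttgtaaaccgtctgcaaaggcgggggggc

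The MT2A window held 7 matches, the MT1H window 8 and the MT1X window 4, and no matches overlapped. Of all 35116 RefSeq promoter windows of the same length, 24.8% held at least 1 match, 0.37% held at least 4 and 0.0313% held at least 7. These shares include the member windows and are not matched for base composition. The share of G and C was 73.2% in the MT2A window, 70.4% in MT1H and 70.0% in MT1X. The 3 metallothionein windows had some positions in common: a match on the gene strand began 53 or 54 bases before the start (position -54 in MT2A, -53 in MT1H and MT1X), with an opposite-strand match upstream of it at -88 in MT2A and at -78 in MT1H and MT1X. They differed next to the start, where MT2A and MT1H had a gene-strand match at -8 and MT1X had none. SLC30A1 had 1 match, on the opposite strand at -49. The windows of MTF1 and of both listed starts of SLC39A10 held 0 matches. Promoter entries were found for 6 of the 10 members; MT1E, MT1F, MT1G and MT1M had none there.

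**Figure D2:**
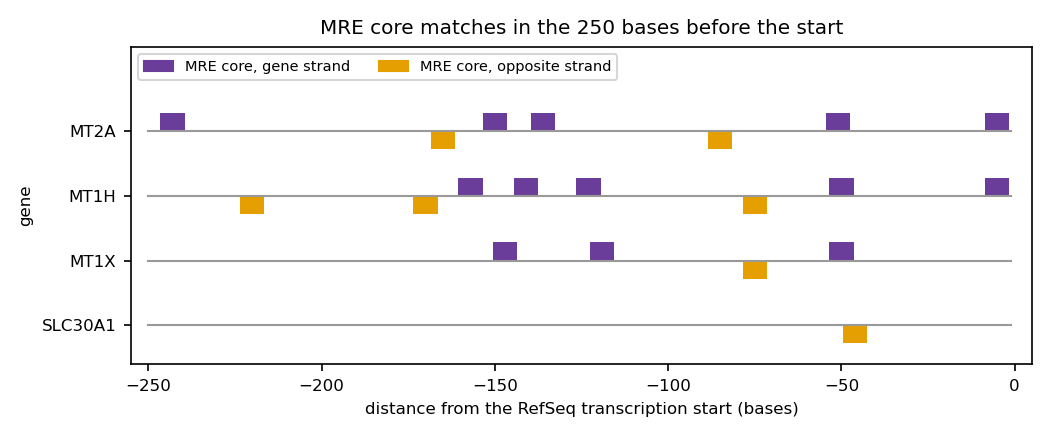
Positions of MRE core matches (boxes) in the 250 bases before the RefSeq start of 4 genes, with the distance from the start in bases on the x axis; purple boxes lie on the strand of the gene and orange boxes on the opposite strand. MT2A has 7 boxes, MT1H 8, MT1X 4 and SLC30A1 1.

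In the 3 metallothionein windows, other response elements were rarer than the MRE core. The antioxidant response element core bound by NRF2, searched as TGACNNNGC on both strands, matched once each in the windows of MT2A, MT1X and SLC30A1 and in 10.9% of all windows. A minimal heat shock element, GAANNTTC, matched in 1 of the 2 SLC39A10 windows and in none of the other member windows, against 5.78% of all windows. No match overlapped an MRE core match. These matches describe the letters only.

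MT2A encodes the main type 2 metallothionein and is the member with the largest rise. Its probe set 212185_x_at had signals of 17438 and 18613 on the shikonin arrays, against 9586 and 9932 on the DMSO arrays. Both shikonin arrays lay far above both DMSO arrays, and the spread within each pair was small beside the gap. The signal averaged 18025 ± 831 after shikonin and 9759 ± 245 in DMSO (SD, n = 2 each). On the scale of log2(signal + 9.94) this is a 1.85-fold rise (log2 change 0.88, SE 0.053, limma adjusted p = 3.3e-05). Over all probe sets tested, 944 (2.88%) had a log2 change at least as large.

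MT1X, the last gene of the cluster, was read by a pair of probe sets that changed alike. On 204326_x_at the signals were 7103 and 7375 after shikonin, against 4246 and 4345 in DMSO (log2 change 0.75, SE 0.056, limma adjusted p = 1.07e-04). On 208581_x_at they were 10812 and 10798 after shikonin, against 7482 and 6680 in DMSO (log2 change 0.61, SE 0.063, limma adjusted p = 6.18e-04). Neither probe set had overlapping groups.

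MT1E was likewise higher on both of its probe sets. Probe set 212859_x_at had signals of 11072 and 11746 after shikonin, against 7380 and 7675 in DMSO, a 1.51-fold rise. Probe set 216336_x_at had 7314 and 7466 after shikonin, against 4273 and 4832 in DMSO, a 1.62-fold rise (limma adjusted p = 3.52e-04 and 4.65e-04 in that order). MT1H, on its single probe set 206461_x_at, had 6812 and 7224 after shikonin and 5045 and 4411 in DMSO, 1.49-fold higher (log2 change 0.57, SE 0.073, limma adjusted p = 0.00195). The groups of MT1H did not overlap, although its DMSO arrays lay farther apart than its shikonin arrays.

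The MT1F probe sets rose by unequal amounts. On 217165_x_at the signals were 5875 and 5999 after shikonin, against 3895 and 3974 in DMSO (log2 change 0.59, 95% interval 0.46 to 0.72, limma adjusted p = 4.21e-04). On 213629_x_at they were 3658 and 3745 after shikonin, against 3124 and 2981 in DMSO (log2 change 0.28, 95% interval 0.14 to 0.42, limma adjusted p = 0.0266). The intervals of the 2 probe sets do not overlap, though both list MT1F; the difference itself was not tested. The call of 213629_x_at was lost without DMSO 2, shikonin 1 or shikonin 2 (adjusted p 0.109, 0.0803 and 0.117).

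MT1G had the smallest rise of the _x_at probe sets and a second probe set that pointed the other way. On 204745_x_at the signals were 8365 and 8805 after shikonin, against 7035 and 7522 in DMSO, 1.18-fold higher (log2 change 0.24, SE 0.058, limma adjusted p = 0.036). Its groups did not overlap, but the call was lost without DMSO 1, shikonin 1 or shikonin 2 (adjusted p 0.149, 0.0744 and 0.183). The dim probe set 210472_at had signals of 12.4 and 20.8 after shikonin, against 56.7 and 80.2 in DMSO, with both shikonin arrays below both DMSO arrays. Its log2 change was -1.57 (95% interval -2.77 to -0.36), which did not pass (limma adjusted p = 0.105). It entered the test through its DMSO signal, since both shikonin values lay below the filter of 34.8 on the mean signal, and its size moved with the constant added before the logarithm (-2 with a constant of 1 and -0.99 with one of 36).

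MT1M had no _x_at probe set, and 217546_at was too dim to be tested. Its signals were 34.2 and 3.23 after shikonin and 3.67 and 37.5 in DMSO. High and low arrays occurred in both groups, so no level can be stated for MT1M. Whether MT1M responded was not detectable on these arrays.

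**Figure D3:**
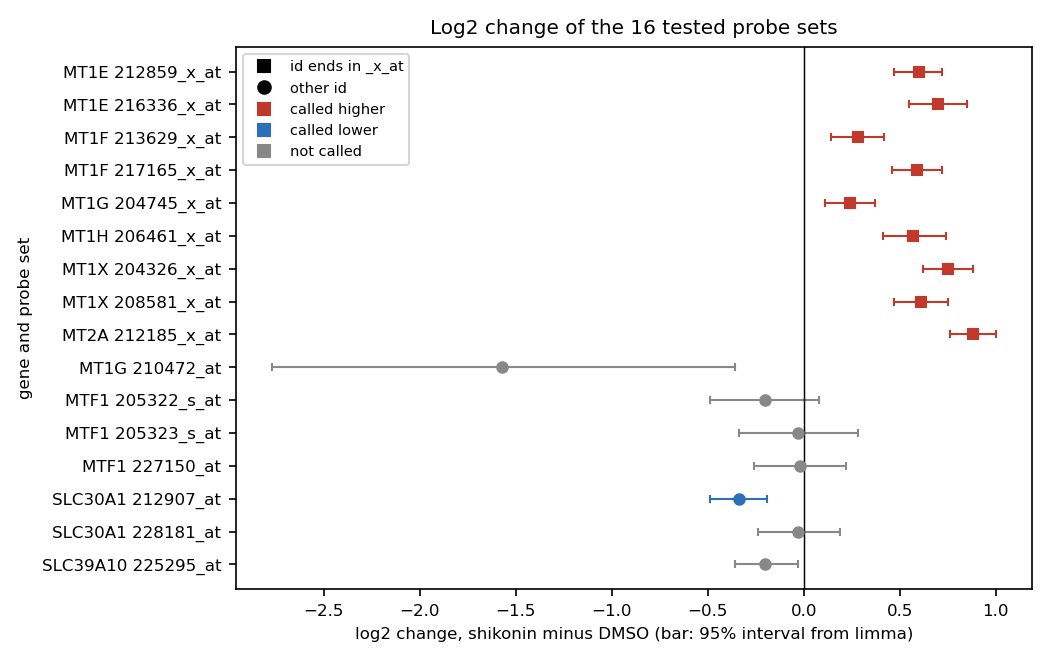
Log2 change, shikonin minus DMSO, of the 16 tested probe sets (y axis) with 95% intervals from limma; squares are probe sets ending in _x_at, and red, blue and grey stand for called higher, called lower and not called. All 9 red squares are metallothioneins, between 0.24 and 0.88, and the 1 blue point is SLC30A1 212907_at at -0.34.

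The 9 rising probe sets stood together in other ways. All lay in the brightest 10% of probe sets tested, those with a mean signal of at least 3044, of which 11.4% were called higher and 6.99% lower. Of all tested probe sets ending in _x_at, 4.20% were called higher and 3.76% lower. In all 9 the groups did not overlap, with shikonin higher, as was so for 27.0% of all tested probe sets. These 9 were picked by their call, so the lack of overlap is no separate support. The change was similar on both shikonin arrays: MT2A lay 0.84 and 0.93 above the DMSO mean on the log2 scale, MT1F 217165_x_at 0.58 and 0.61, and MT1G 204745_x_at 0.20 and 0.28. These probe sets are marked as matching other transcripts, and which metallothionein transcripts each one matches was not checked. The gene to which each signal belongs is therefore uncertain, and the 9 cannot be taken as independent readings. Without probe sets ending in _x_at, 0 member probe sets were called higher by limma (0 at an unadjusted p under 0.05 as well), because no metallothionein probe set that was called remains.

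The count also rested on single arrays and on the error model. It was 8 without DMSO 1, 8 without DMSO 2, 7 without shikonin 1 and 7 without shikonin 2. The calls over all probe sets moved too: those higher, 1286 with all arrays, numbered 827 without DMSO 2, 582 without shikonin 1 and 672 without shikonin 2, and those lower, 1726 with all arrays, numbered 1081 without DMSO 1 and 1142 without DMSO 2. With a single variance prior in place of one that follows signal, limma called 0 member probe sets, and 0 of all probe sets, at the adjusted threshold (smallest adjusted p 0.0833), while 8 member probe sets were higher and 2 lower at an unadjusted p under 0.05, against 8.33% and 9.89% of all probe sets in that fit. An exact permutation test of 2 arrays against 2 cannot go below p = 0.333 two-sided, which is the value for MT2A.

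In the RefSeq gene order, the metallothionein genes form a cluster of 16 on chromosome 16, pseudogenes included. Read in the order of the chromosome, the log2 change of the probe set with the highest DMSO signal was 0.88 for MT2A (place 3), 0.60 for MT1E (place 5), 0.59 for MT1F (place 12), 0.24 for MT1G (place 13), 0.57 for MT1H (place 14) and 0.61 for MT1X (place 16). The member with the smallest rise, MT1G, lay directly between MT1F and MT1H, whose changes were alike. A _x_at signal may come from a neighbour, so this order describes probe sets rather than single genes.

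**Figure D4:**
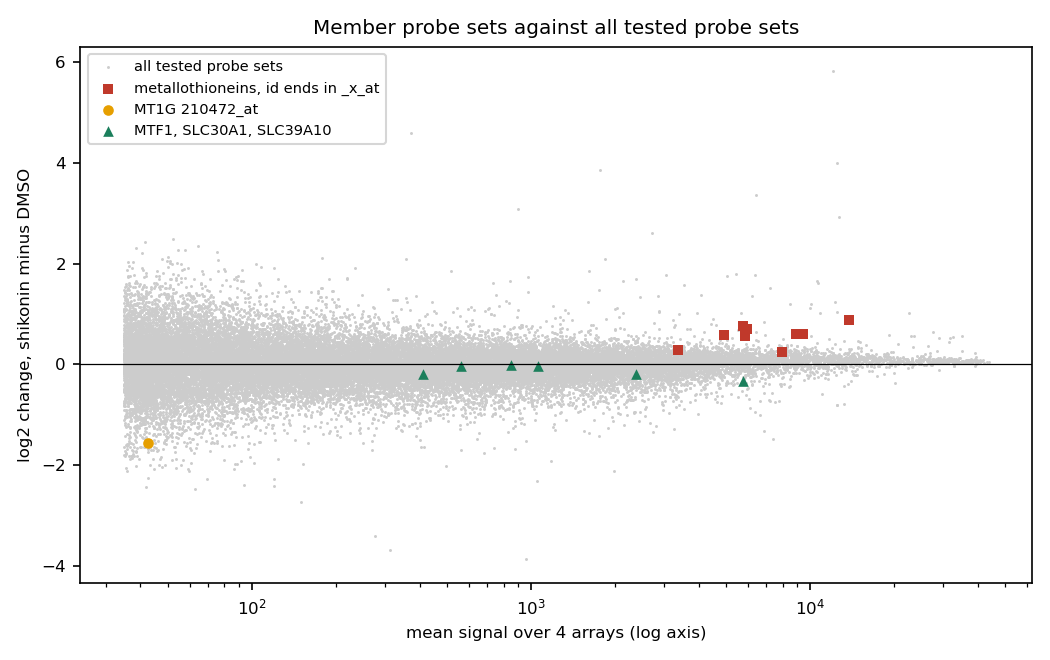
Log2 change, shikonin minus DMSO (y axis), against mean signal over the 4 arrays (x axis, log scale) for all 32768 tested probe sets (grey) and the 16 tested member probe sets. The 9 metallothionein _x_at probe sets (red squares) sit at the bright end above 0, MT1G 210472_at (orange) at the dim end at -1.57, and MTF1, SLC30A1 and SLC39A10 (green triangles) between -0.34 and -0.02.

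MTF1, the zinc sensor that drives metallothionein transcription, did not pass on any of its 3 probe sets. Probe set 227150_at had signals of 893.3 and 801.9 after shikonin, against 918.9 and 801.5 in DMSO, with overlapping groups (log2 change -0.02, 95% interval -0.26 to 0.22, limma adjusted p = 0.939). Probe set 205323_s_at, with 494.6 and 624.7 after shikonin and 530.9 and 605.7 in DMSO, overlapped as well. On 205322_s_at both shikonin arrays (398.6 and 367.1) lay below both DMSO arrays (464.1 and 421.7), with a log2 change of -0.20 (95% interval -0.49 to 0.08, limma adjusted p = 0.372). The intervals of the 3 probe sets leave room for a change of MTF1 between -0.49 and 0.28 on the log2 scale.

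SLC30A1, which exports zinc across the plasma membrane, was lower on 1 of its 2 tested probe sets. On 212907_at the signals were 5202 and 4999 after shikonin, against 6780 and 6152 in DMSO. Both shikonin arrays lay below both DMSO arrays, with means of 5100.5 ± 143 after shikonin and 6466 ± 444 in DMSO (SD, n = 2 each). The log2 change was -0.34 (SE 0.065, 95% interval -0.49 to -0.19, limma adjusted p = 0.0129), so this probe set moved opposite to the metallothionein _x_at probe sets. The second, 228181_at, had 1020 and 1082 after shikonin, against 1142 and 1005 in DMSO, with overlapping groups and a log2 change of -0.03 (95% interval -0.24 to 0.19, limma adjusted p = 0.897). The third, 242716_at, had signals of 5.09 and 5.45 after shikonin and 5.49 and 4.38 in DMSO and was not tested. The call of 212907_at was lost without DMSO 1 (log2 change -0.27, adjusted p 0.0592) or without shikonin 2 (-0.31, adjusted p 0.059).

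SLC39A10, a zinc importer of the ZIP family, was read by 225295_at alone. Its signals were 2294 and 2141 after shikonin, against 2628 and 2453 in DMSO. The groups did not overlap, with shikonin lower, which also held for 26.1% of all tested probe sets. The log2 change of -0.20 (SE 0.073, 95% interval -0.36 to -0.03) did not pass (limma adjusted p = 0.138). Of the 7 tested member probe sets without the _x_at ending, 4 had no overlap with shikonin lower, namely those of SLC39A10, MT1G 210472_at, MTF1 205322_s_at and SLC30A1 212907_at. Among them, MT1G 210472_at entered the test only through its DMSO signal, so it is no support for a direction.

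The rest of the metal-handling system was read through a list of 41 further genes: other metallothioneins, the SLC30 (ZnT) and SLC39 (ZIP) transporter families and copper handling. Probe sets were found for 33 of them, and 55 of their 70 probe sets were tested. By limma 1 was called higher and 0 were called lower, against 3.92% and 5.27% of all probe sets, and at an unadjusted p under 0.05 there were 9 higher and 2 lower, against 11.7% and 12.8% of all. The median log2 change was 0.07. The groups did not overlap, with shikonin higher, for 20 of the 55 and, with shikonin lower, for 10, against 27.0% and 26.1% of all tested probe sets. Without DMSO 1, 3 were called higher: besides the one described next, a probe set each of the zinc transporters SLC30A5 (220181_x_at, whose DMSO arrays read 227.1 and 33.1) and SLC30A7 (226601_at).

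The called probe set was 211456_x_at, listed for MT1HL1, a metallothionein-like gene on chromosome 1 outside the cluster. It had signals of 14374 and 14627 after shikonin, against 6751 and 7682 in DMSO, 2.01-fold higher (log2 change 1.01, SE 0.066, limma adjusted p = 4.72e-05). Its log2 change was larger than the 0.88 of MT2A, a difference that was not tested, and it too is a _x_at probe set whose signal may come from other metallothioneins. MT3, a metallothionein best known from the brain, had 92.9 and 116.8 after shikonin, against 100.9 and 127.1 in DMSO on 205970_at, with overlapping groups and a log2 change of -0.11. MT4 was too dim to be tested. Of the 11 other metallothioneins listed, only these 3 had a probe set, so the rest could not be read under their own symbols.

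By limma 0 of the 18 tested probe sets of other SLC30 transporters passed. At an unadjusted limma p under 0.05 there were 5 higher and 0 lower, against 11.7% and 12.8% of all tested probe sets. The 5 higher were SLC30A5 218989_x_at and 243166_at, SLC30A6 226161_at and 243643_x_at, and SLC30A7 226601_at (log2 changes 0.22 to 0.45). The median log2 change of the 18 was 0.14. Both shikonin arrays lay above both DMSO arrays for 9 of them and below for 2, against the same 27.0% and 26.1% of all. The probe sets of TMEM163, a zinc efflux protein of the same superfamily, included 223503_at, with signals of 9216 and 9057 after shikonin, against 9832 and 9461 in DMSO (log2 change -0.08, 95% interval -0.19 to 0.04). With quantile normalization, both of its probe sets were called lower (log2 changes -0.19 and -0.17, limma adjusted p 0.0309 and 0.044). SLC30A9 had a log2 change of 0.07 (95% interval -0.09 to 0.24) on 202614_at. Of the 24 tested probe sets of other SLC39 transporters, limma called 0, with a median of 0.06. At an unadjusted limma p under 0.05, 3 were higher and 1 was lower, against the same 11.7% and 12.8% of all. SLC39A3 223917_s_at changed by -0.02 and SLC39A8 209267_s_at, a zinc and manganese importer, by 0.13 (95% intervals -0.17 to 0.13 and -0.05 to 0.31 in that order). The 1 lower was SLC39A3 232115_at (log2 change -0.54), while SLC39A3 229677_at changed by -0.21. Of the dimmer SLC39A8 probe sets, 222935_x_at changed by 1.37 (95% interval -0.11 to 2.86) and 228945_s_at by 0.62 (-0.18 to 1.41). In both, the shikonin arrays lay above the DMSO arrays. SLC39A8 216504_s_at and 219869_s_at changed by 0.04 and -0.01.

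Of 11 tested probe sets of copper genes, limma called 0, with a median log2 change of -0.13. At an unadjusted limma p under 0.05, 0 were higher and 1 was lower, against 11.7% and 12.8% of all tested probe sets. SLC31A1, the copper importer CTR1, had signals of 1329 and 1021 after shikonin, against 1232 and 1332 in DMSO on 203971_at (log2 change -0.14, 95% interval -0.41 to 0.14). The copper chaperone ATOX1 changed by 0.03 (95% interval -0.16 to 0.22). The lower bound of the MT2A change was 0.76. The intervals of TMEM163 223503_at, SLC30A9 202614_at, SLC39A3 223917_s_at, SLC39A8 209267_s_at, SLC31A1 203971_at and ATOX1 203454_s_at lie below it. Those of other probe sets on the list reach above it, for example SLC30A5 220181_x_at (log2 change 1.11, 95% interval -0.29 to 2.51) and SLC30A5 243166_at (0.45, 0.05 to 0.85). So do those of SLC39A8 222935_x_at (1.37, -0.11 to 2.86) and 228945_s_at (0.62, -0.18 to 1.41), so for SLC39A8 the probe sets differ.

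**Figure D5:**
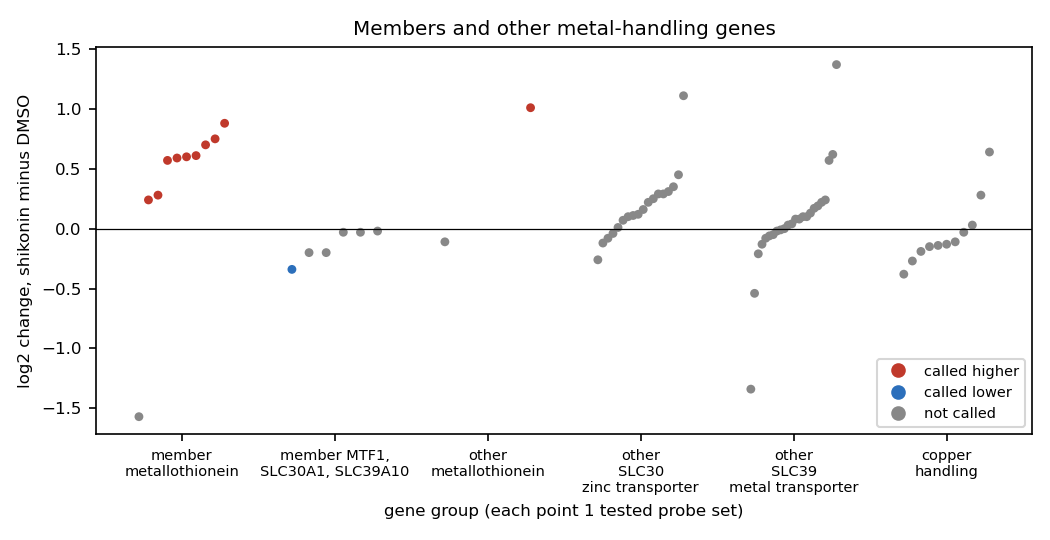
Log2 change, shikonin minus DMSO (y axis), of each tested probe set, by gene group (x axis), sorted within each group and coloured by call (red higher, blue lower, grey not called). Red points appear only in the 2 metallothionein groups, 9 in the first and 1 (MT1HL1) in the other; without _x_at probe sets no red point remains.

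The genes whose values over the 4 arrays most resembled those of MT2A were sought among non-member probe sets without the _x_at ending, by the Euclidean distance of log2 values centred on their own mean. They were EIF5, a translation initiation factor (distance 0.059, log2 change 0.84), DISP1, which releases hedgehog ligands (0.066, 0.86), KLHL5 (0.067, 0.82) and FTX, a long non-coding RNA (0.084, 0.85). EIF5, DISP1 and FTX were called higher, while KLHL5 was not called (limma adjusted p = 0.111). Within a distance of 0.1 of MT2A lay 12 probe sets of the 32768 tested. Around SLC39A10 lay 779, the nearest being those of DENND2D, HDAC8, KAT6A and FUBP1 (distances 0.0061 to 0.016, log2 changes -0.20 to -0.18), so a pattern like that of SLC39A10 was common on these arrays. Likeness over 4 arrays is a description of these arrays only.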

How the data were processed

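RNA from the 4 cell samples was amplified from its 3′ end, biotin-labelled and hybridized to the arrays, per the labels' protocols. Each deposited value is an intensity per probe set on a linear scale, as made by the authors with software that the sources used here do not name. The mean signal after trimming 2% at each end was 500.1 on all 4 arrays, and a change is therefore a change in relation to all other signals of that array. Gene symbols came from GEO's platform annotation, and gene identifiers tied all 18 member probe sets to RefSeq (GRCh38.p14), which was used for names, gene order and promoter sequences. The genome build behind the platform annotation is unknown here, and the printed coordinates are those of the RefSeq promoter table.

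Intensities were converted to log2(signal + 9.94), the pseudocount being the 20th percentile of all values, so folds of dim genes are understated. Controls (62) and probe sets in the lowest 40% by mean signal (below 34.8) were left out, leaving 32768. Shikonin was compared with DMSO by limma 3.58.1 in R 4.3.3 (lmFit and eBayes with a variance trend, two-sided, 2 residual and 7.1 prior degrees of freedom), and p-values were adjusted by Benjamini-Hochberg over those 32768, with 0.05 as the threshold. The fit was tested on simulated data. The number of arrays, 2 a group, limits the precision.

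The members, the other gene lists and the tests were chosen with earlier results of these data known. The text names every member probe set; of the other metal-handling genes, those called or, where a role had no call, up to 2 genes of that role with the brightest single-symbol probe set; and the 4 genes nearest to MT2A and to SLC39A10. MT3, MT4, marker genes, the SLC30 probe sets at an unadjusted p under 0.05 and genes called only under an alternative were named after their values were seen. So were the further probe sets of SLC39A3 and SLC39A8. Alternatives changed the pseudocount, the filter, the normalization, the variance prior, the probe sets used, the arrays used and the sample number as a block.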

Additional observations from a re-analysis of the deposited data

How the results depend on the processing

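The member probe sets called numbered 9 higher and 1 lower with either other pseudocount, with the lowest 60% left out and with the replicate block. Without a filter, 7 member probe sets were called higher (MT1F 213629_x_at and MT1G 204745_x_at lost the call, adjusted p 0.0543 and 0.0964), and 638 of all probe sets were called higher and 1111 lower, against 1286 and 1726. With quantile normalization, 8 were called higher (MT1G 204745_x_at at 0.0764), and 2 other metal-handling probe sets, both of TMEM163 (log2 changes -0.19 and -0.17), were called lower. A single variance prior left 0 calls in every count, with adjusted p of 0.147 to 0.321 for the 9 metallothionein probe sets and 0.246 for SLC30A1 212907_at. Without _x_at probe sets, 0 member and 0 other metal-handling probe sets were called higher, since those called had been removed. Leaving out 1 array at a time gave 7 to 8 member probe sets called higher and 0 to 1 lower, 1 to 3 other metal-handling probe sets higher (SLC30A5 220181_x_at and SLC30A7 226601_at were added without DMSO 1) and 0 lower, and 582 to 916 of all probe sets higher and 1081 to 1321 lower. An arm of 1 array was assumed to vary like the other group. No called probe set changed direction under any alternative listed here; MTF1 205323_s_at, MTF1 227150_at and SLC30A1 228181_at, which were not called, changed sign under some of them.

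The sample titles number the samples 1 and 2 in each group, and nothing states that a number marks a shared culture or day. Over the probe sets tested, the difference between arrays 1 and 2 of shikonin correlated with that of DMSO at 0.02. With the number as a replicate block, 2381 probe sets were called higher and 2660 lower, 3 of them among the other metal-handling probe sets (MT1HL1, SLC39A14 212110_at and SLC30A5 218989_x_at, all higher).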
